A study of Mus musculus with 12 samples.

Results

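The 37 genes described here encode the transcription factor NRF2, its inhibitor KEAP1, and enzymes and binding proteins that remove reactive oxygen species, handle glutathione and thioredoxin, or bind iron and other metals. They were picked by gene symbol, not by any measured value, although earlier results of these data were known when they were chosen. They are 37 of the 24452 symbols in the count tables of 12 RNA-Seq libraries. The tables list 53 RefSeq transcripts of these genes, and 10 of the genes had more than 1 transcript, whose counts were summed. All 37 passed the filter on low counts, as did 14739 symbols in all.

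NRF2, the product of Nfe2l2, is held by KEAP1 and degraded in unstressed cells. Electrophiles and oxidants modify KEAP1, and NRF2 then enters the nucleus and binds antioxidant response elements with a small MAF partner. Its known targets make glutathione, regenerate thioredoxin, reduce quinones and store iron, while metallothionein genes also respond to zinc and to glucocorticoids. Ethanol metabolism produces acetaldehyde and reactive oxygen species, and p53 itself is known to control several redox genes, so both factors of the study bear on this system.

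The tissue was somatosensory cortex of male mice at postnatal day 7, on a C57BL/6 background. WT mice and mice with a germline knockout of p53 (Trp53tm1Tyj), born to heterozygous parents, were given saline or ethanol by repeated intraperitoneal injection. Brains were taken 8 h after the last injection. The 4 groups were WT saline (libraries 1, 3 and 13), WT ethanol (4, 5 and 14), KO saline (7, 8 and 9) and KO ethanol (10, 12 and 18), with 3 libraries each. The knockout was present in every cell type of the animal throughout development. The labels do not say whether the animals of a group came from separate litters, so p-values measure the spread between these samples.

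The libraries differed in ways that touch these genes. Total counts ran from 719735 to 17066392, a ratio of 23.7, and the shallowest libraries, WT saline 3 and KO ethanol 12, are the 2 whose names open with the letter L. Transcripts under 1000 bases took 30.0% of all counts in WT saline 1, 20.5% in KO ethanol 12, 13.6% in WT saline 13, 11.4% in WT saline 3 and 5.97 to 10.6% in the other 8. The 37 genes together took 0.431 to 1.14% of the counts of a library. All 7 neuron markers and all 5 cortical identity markers passed the filter, and their summed levels were 4283 to 10996 and 124 to 567 CPM (counts scaled to library size with TMM factors). WT ethanol 4 was lowest in both and had the highest sum of 4 choroid plexus markers, 4992 CPM, against 1.67 to 2246 elsewhere. Its sum of 7 astrocyte markers was also the highest, 2765 CPM, against 950 to 2479 elsewhere. The sum of 5 red blood cell genes was 337 to 1319 in WT saline and 766 in KO ethanol 12, against 29.1 to 145 in the other libraries. Trp53 itself was at 3.67, 26.2 and 14.4 CPM in WT saline and at 27.6, 11.1 and 11.7 in KO saline, and at 14.8, 7.23 and 20 in WT ethanol and 28.1, 23.4 and 28.7 in KO ethanol. These counts cover the whole transcript, including exons outside the disrupted part, so they check the genotype in neither direction, and genotype was taken from the labels. In bulk tissue, fewer cells of a type and less RNA per cell cannot be told apart.

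Counts were tested with edgeR's quasi-likelihood test over all 14739 symbols. An unadjusted p under 0.05 is called nominal below, and the study's own level for single genes was an adjusted p of 0.30, which it did not apply to ethanol in KO mice, where it ranked genes by unadjusted p. With all 12 libraries, no member had an adjusted p under 0.05 in any of the 6 comparisons in edgeR. Without the 2 libraries named with L, 16 members passed 0.05 for ethanol in WT mice and 19 for KO saline against WT saline, all of them lower, as did 7 for the effect averaged over genotypes (Mt1 higher and 6 lower). Shares of all genes at the unadjusted level then also rose, to 37.3%, 39.2% and 30.6%. Without WT saline 3 alone, 4 and 14 members passed 0.05 in the first 2 of these comparisons. The nominal counts are given with each comparison. In DESeq2, Ftl1, Gstm5, Prdx4 and Sod1 passed 0.05 in KO saline against WT saline, Mt1 in the ethanol effect averaged over genotypes and Sod1 in the interaction. Shares of all genes at an adjusted p under 0.05 are not given for these alternatives. The counts of members there are therefore not read as particular to the members.

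Per transcript length, ferritin was the most abundant component of the system in P7 cortex. The authors' RPKM corrects for length, and its sorted values nearly coincide between libraries, as after a quantile normalization. It averaged 1262 for Ftl1 (ferritin light chain) and 1096 for Fth1 (ferritin heavy chain) over the 12 libraries. Prdx2, a cytosolic peroxiredoxin abundant in neurons, followed with 463, then the copper-zinc superoxide dismutase Sod1 with 414 and the lipid hydroperoxide reductase Gpx4 with 389.6. Ftl1 was at 715, 1581 and 1887 RPKM in WT saline, 1355, 1581 and 1044 in WT ethanol, 1175, 744 and 1379 in KO saline and 1261, 1261 and 1166 in KO ethanol. Fth1 was at 694, 1434 and 1044, then 1379, 1379 and 694, then 801, 821 and 1645, then 891, 1553 and 821 in the same order of groups. The 4 groups overlapped in both genes, and the order of the 2 ferritin chains did not hold in every library. Prdx2 ranged over 348 to 621 RPKM and lay below both chains in every library.

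At the other end stood the regulators and inducible genes. NRF2 itself averaged 4.95 RPKM and KEAP1 12.5. The heme oxygenase Hmox1 averaged 5.11, the cystine transporter Slc7a11 3.28, the quinone reductase Nqo1 2.76 and the extracellular superoxide dismutase Sod3 1.19. Sod3 had 0 counts in KO ethanol 12, where 3 counts correspond to 5.01 CPM, so a low level could not have been detected there. The constitutive heme oxygenase Hmox2, at 50.2, was above Hmox1 on the same scale.

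**Figure D1:**
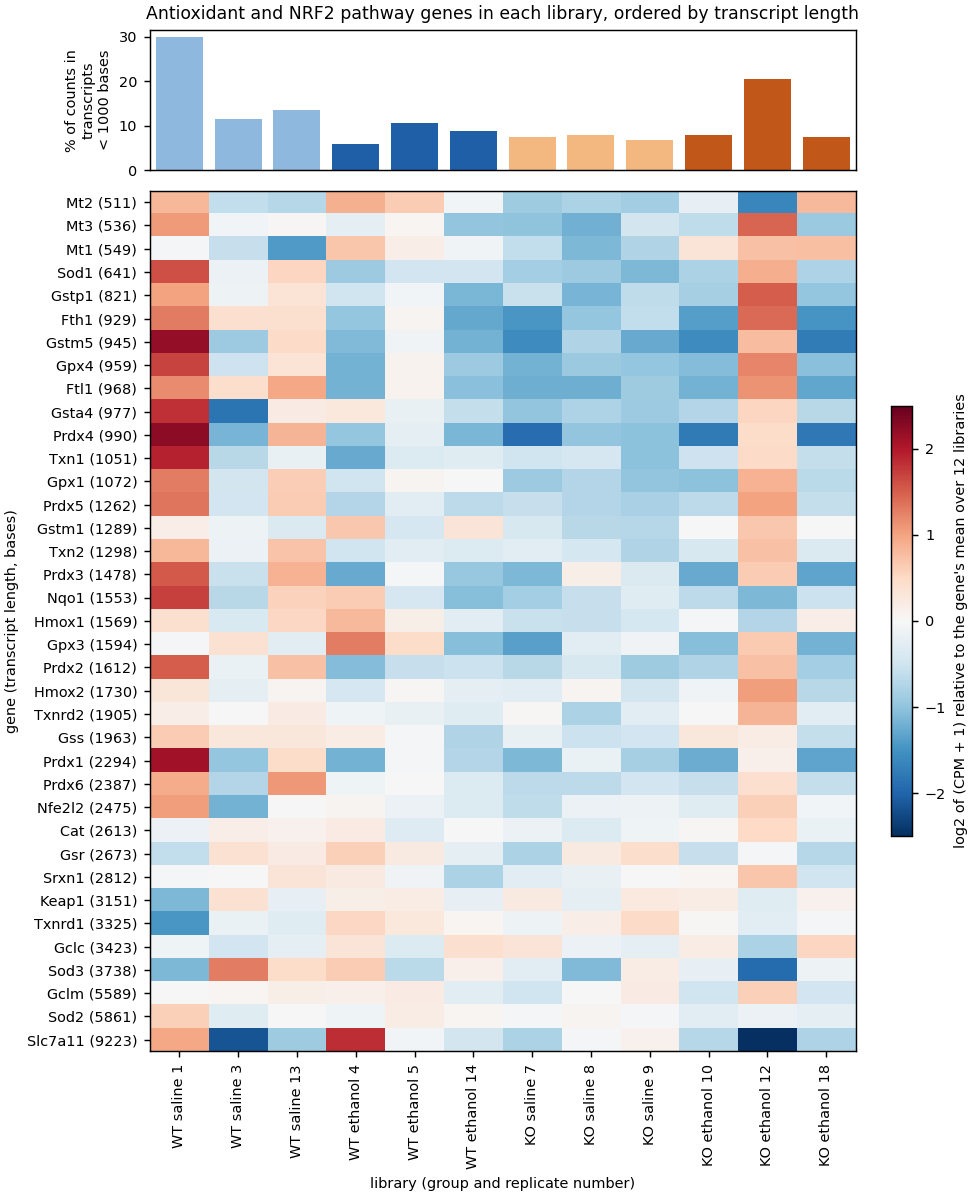
The heat map shows log2 of (CPM + 1) for each of the 37 genes (rows, ordered by transcript length in bases) in each of the 12 libraries (columns), relative to the mean of the gene, and the bars above give the percent of counts in transcripts under 1000 bases. WT saline 1 (30.0%) and KO ethanol 12 (20.5%) are red over most of the upper, shorter genes, whereas the metallothioneins Mt1 and Mt2 follow another order.

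After ethanol in KO mice, and averaged over genotypes, the smallest p among the members belonged to a metallothionein gene, Mt1. Mt1 and Mt2 encode small cysteine-rich proteins that bind zinc and copper and scavenge radicals, and Mt3 is the brain-enriched member of the family. All 3 lie within one cluster on chromosome 8 (mm10), with Mt3 at 94152607 to 94154148, Mt2 at 94172618 to 94173567 and Mt1 at 94179089 to 94180327, each with 1 RefSeq transcript in the tables. Their promoter windows are shown because the ethanol results turn on Mt1, and Mt2 and Mt3 are its neighbors. The windows are from RefSeq on GRCm38.p6, the assembly of mm10, plus strand, and span 250 bases before to 50 bases after the annotated start. Capitals mark the metal response element cores TGCACNC and TGCGCNC and the antioxidant response element core TGACNNNGC, each searched on both strands.
Mt1 (chr8:94178839-94179138): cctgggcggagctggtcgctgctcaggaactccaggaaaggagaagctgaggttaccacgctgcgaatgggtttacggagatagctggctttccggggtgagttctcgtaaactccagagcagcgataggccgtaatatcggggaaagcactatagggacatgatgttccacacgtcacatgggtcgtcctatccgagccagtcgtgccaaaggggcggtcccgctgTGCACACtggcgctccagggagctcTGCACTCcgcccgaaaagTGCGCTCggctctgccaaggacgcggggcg
Mt2 (chr8:94172368-94172667): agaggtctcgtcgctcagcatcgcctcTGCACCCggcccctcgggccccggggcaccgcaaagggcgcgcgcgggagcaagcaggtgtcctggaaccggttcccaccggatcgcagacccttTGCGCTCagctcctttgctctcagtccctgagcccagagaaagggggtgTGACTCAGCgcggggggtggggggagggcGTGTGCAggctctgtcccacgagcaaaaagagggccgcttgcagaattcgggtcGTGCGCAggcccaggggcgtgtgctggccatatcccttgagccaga
Mt3 (chr8:94152357-94152656): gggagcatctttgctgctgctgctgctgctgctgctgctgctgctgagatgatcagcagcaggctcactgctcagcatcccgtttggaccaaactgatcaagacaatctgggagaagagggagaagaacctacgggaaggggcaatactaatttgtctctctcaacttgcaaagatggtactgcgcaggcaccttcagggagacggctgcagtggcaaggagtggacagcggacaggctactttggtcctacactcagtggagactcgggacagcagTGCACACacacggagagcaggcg
The Mt1 window held 3 metal cores and no antioxidant core, the Mt2 window 4 metal cores and 1 antioxidant core, and the Mt3 window 1 metal core, with no overlaps between matches. Over all 32851 windows of this length, 12.6% held TGCACNC, 15.4% TGCGCNC and 12.4% TGACNNNGC. Either metal core was in 25.7% of all windows and in 25% of the 40 windows of members. The matches describe the letters in these windows and were not tested for binding. Bases outside the windows were not searched. The lack of an antioxidant core in the Mt1 window therefore does not mean that the gene lacks this element.

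Mt1 was at 66.7, 45.2 and 25.03 CPM in WT saline and 111, 76.6 and 63.8 in WT ethanol. The groups overlapped by 1 library, since WT ethanol 14 lay just under WT saline 1. In KO mice Mt1 was at 44.0, 30.7 and 40.1 after saline and 85.3, 114 and 115 after ethanol, and every ethanol library was above every saline library. The fold change was 1.84 in WT mice (log2 fold change 0.88 ± 0.38 (SE), adjusted p = 0.246) and 2.73 in KO mice (log2 fold change 1.45 ± 0.39 (SE), adjusted p = 0.999). Averaged over genotypes it was 2.24 (log2 fold change 1.16 ± 0.27 (SE), adjusted p = 0.418), the smallest p of any member in any comparison. The ethanol effects in the 2 genotypes did not differ beyond their error (interaction 0.56 ± 0.54, adjusted p = 0.645). The averaged Mt1 effect stayed nominal in all 24 alternative analyses, between 1.01 and 1.52 on the log2 scale, and was 1.04 without WT ethanol 4, the library with the most choroid plexus markers. In the authors' RPKM, Mt1 was at 60.3, 70.8 and 33.2 in WT saline and 303, 119.7 and 119 in WT ethanol, with no overlap. In KO mice it was at 87.6, 52.1 and 79.7 RPKM after saline and 196, 123 and 276 after ethanol.

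Mt2 was at 106, 38.0 and 35.5 CPM in WT saline, 110.0, 93.0 and 56.7 in WT ethanol, 31.4, 33.7 and 32.0 in KO saline and 51.5, 18.4 and 105 in KO ethanol. KO ethanol 12, the shallowest library, was the lowest of all 12 for Mt2, although it was among the highest for Mt1. The Mt2 differences were not nominal in WT mice (0.53 ± 0.53, adjusted p = 0.602) or KO mice (0.89 ± 0.54, adjusted p = 0.999). With each library's trend in transcript length and GC content removed, the WT values were 1.72 for Mt1 (adjusted p = 0.0905) and 1.61 for Mt2 (adjusted p = 0.217), and the KO value of Mt1 was 0.76 (adjusted p = 0.99999). Mt3 went with the other short transcripts rather than with Mt1, at 261, 119 and 127 CPM in WT saline, 105, 129 and 62.4 in WT ethanol, 61.3, 53.6 and 90.1 in KO saline and 79.7, 344 and 65.4 in KO ethanol. Its fold change was negative in WT mice (−0.77 ± 0.57, adjusted p = 0.466) and positive in KO mice (1.22 ± 0.58, adjusted p = 0.999), and on log2(RPKM + 1) the WT value was 0.16.

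**Figure D2:**
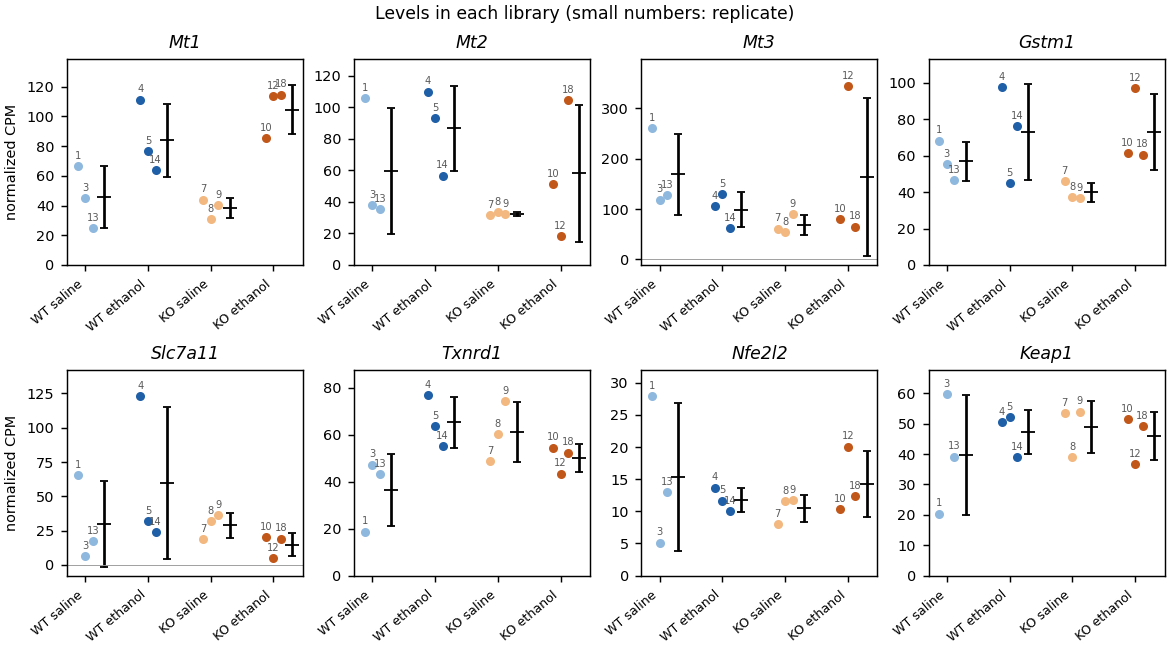
Each panel plots the normalized CPM of 1 gene in every library (points, with replicate numbers) by group, and the bar beside the points is the mean ± SD of 3 libraries. Mt1 in KO ethanol (85.3 to 115) lies above all KO saline libraries (30.7 to 44.0), Slc7a11 is highest in WT ethanol 4 (123), and the Nfe2l2 and Keap1 groups overlap.

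The regulators themselves showed no nominal difference. Nfe2l2 was at 27.9, 5.14 and 13.0 CPM in WT saline, 13.7, 11.7 and 10.0 in WT ethanol, 7.97, 11.6 and 11.8 in KO saline and 10.3, 20.1 and 12.4 in KO ethanol. The WT saline libraries held both the highest and the lowest value of the 12. Keap1 was at 20.4, 59.6 and 39.1, 50.6, 52.1 and 39.0, 53.6, 38.9 and 54.0 and 51.5, 36.8 and 49.2 CPM in the same order. The ethanol effect on Nfe2l2 was −0.40 ± 0.50, adjusted p = 0.68 in WT and 0.37 ± 0.52, adjusted p = 0.999 in KO mice, and that on Keap1 was 0.26 ± 0.38, adjusted p = 0.727 and −0.07 ± 0.38, adjusted p = 0.999. NRF2 is controlled mainly through protein stability, which these RNA counts do not measure.

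The same held for 5 of the classical NRF2 target genes. Gclc and Gclm, the 2 subunits of the enzyme that limits glutathione synthesis, Gsr, which reduces oxidized glutathione, Srxn1, which repairs overoxidized peroxiredoxins, and Hmox1 were not nominal in edgeR in any of the 6 comparisons. It did not hold for other targets. Txnrd1 was nominally higher after ethanol in WT mice, and Nqo1 nominally lower in KO saline than in WT saline. Slc7a11 was nominally lower in KO than in WT mice after ethanol. Gclc was at 35.5, 27.3 and 32.2 CPM in WT saline and 48.2, 30.1 and 51.1 in WT ethanol (0.44 ± 0.38, adjusted p = 0.532), and Gclm at 17.5, 18.0 and 19.4 and 19.2, 20.2 and 14.4 (−0.03 ± 0.39, adjusted p = 0.978). Hmox1 was at 12.1, 6.68 and 13.2 and 16.5, 10.0 and 7.20 in WT mice and at 5.83, 5.74 and 6.40 and 8.84, 5.01 and 10.2 in KO mice. Its KO ethanol libraries straddled the KO saline libraries, with KO ethanol 12 below them and the other 2 above. KO ethanol 12 had only 3 Hmox1 counts, so its place below them is uncertain. In KO saline, all 3 Hmox1 values lay below WT saline, and the difference passed the 0.30 level (−0.86 ± 0.44, adjusted p = 0.293) and was nominal in DESeq2. Gclm overlaps another gene on the same strand, so its reads are uncertain.

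In WT mice, ethanol exposure went with lower levels of peroxiredoxins, thioredoxins and other short, abundant transcripts and with higher Mt1 and Txnrd1. Of the 37 genes, 2 were nominally higher and 10 nominally lower, against 9.99% higher and 8.36% lower of all genes tested. Without TMM scaling, which moved the median of all genes from 0.06 to 0.49, 4 were nominally higher and 2 lower. The median log2 fold change was −0.60 over the members and 0.06 over all genes tested. At the adjusted level of 0.30, 13 members were called (2 higher and 11 lower), with 22.5% of all genes called. The smallest adjusted p was 0.208. Every WT ethanol library lay below every WT saline library for 7 members and above for 1, against 8.30% and 11.3% of all genes. Summed neuron markers were also lower, at 4283 to 7165 CPM in WT ethanol against 8390.2 to 9238 in WT saline, and the red blood cell genes were at 50.2 to 145 against 337 to 1319. The part of either in the result was not tested.

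The peroxiredoxins reduce hydrogen peroxide with thioredoxin as donor, and all 6 had a negative fold change in WT mice, 5 of them nominal. Prdx2 was at 2352, 733 and 1368 CPM in WT saline and 387, 548 and 562 in WT ethanol, and the groups did not overlap (log2 fold change −1.57 ± 0.54 (SE), adjusted p = 0.208). Prdx4, which resides in the endoplasmic reticulum, was at 336, 30.9 and 127 and 35.6, 59.4 and 31.4, and WT saline 3 lay below all 3 ethanol libraries (log2 fold change −1.97 ± 0.74 (SE), adjusted p = 0.215). The mitochondrial Prdx3 was at 413, 96.7 and 261 and 58.8, 137 and 73.4 (log2 fold change −1.52 ± 0.62 (SE), adjusted p = 0.23). For these 3 genes WT saline 1 was the highest library and WT saline 3 the lowest saline library. The cytosolic Prdx1 was at 1917, 229 and 619 and 197, 441 and 269 (log2 fold change −1.61 ± 0.67 (SE), adjusted p = 0.235), and Prdx5, found in several compartments, at 489, 138 and 302 and 116, 160.1 and 122 (log2 fold change −1.22 ± 0.50 (SE), adjusted p = 0.233). Prdx6, the 1-cysteine member, was not nominal (−0.78 ± 0.44, adjusted p = 0.346). All 6 fold changes stayed negative without TMM scaling, on log2(RPKM + 1) and with length and GC trends removed, at medians of −0.94, −0.26 and −1.04. With trends removed, the median over all genes was also negative, −0.23 under 2000 bases and −0.17 at 2000 bases or more. Without WT saline 1 none of the 6 was nominal and the median was −0.86, and over all members 3 were then nominally higher and 0 lower.

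Sod1 was also lower, passing the 0.30 level. It was at 1071, 315 and 504 CPM in WT saline and 186, 249.6 and 250.3 in WT ethanol, with no overlap (log2 fold change −1.46 ± 0.53 (SE), adjusted p = 0.209). On log2(RPKM + 1) the values shrank to −0.16 for Sod1, −0.37 for Prdx2, −0.13 for Prdx1 and −0.08 for Prdx5. The mitochondrial Sod2 and the catalase gene Cat were close to level, at −0.10 ± 0.31, adjusted p = 0.884 and −0.08 ± 0.30, adjusted p = 0.903. Within the thioredoxin system both electron carriers were lower and the cytosolic reductase was higher. Cytosolic Txn1 was at 1130.2, 185 and 260.3 CPM in WT saline and 124, 236 and 241 in WT ethanol (log2 fold change −1.39 ± 0.60 (SE), adjusted p = 0.245), and mitochondrial Txn2 at 244, 125 and 225 and 97.3, 115 and 108 (log2 fold change −0.89 ± 0.38 (SE), adjusted p = 0.244). The Txn1 difference rested on WT saline 1, since the other 2 saline libraries lay within or near the ethanol range and the value was −0.18 (adjusted p = 0.894) without it. On log2(RPKM + 1) the Txn1 value was 0.02. Txnrd1, the cytosolic thioredoxin reductase, was at 18.7, 47.3 and 43.2 and 76.8, 63.7 and 55.2, and every ethanol library was above every saline library (log2 fold change 0.85 ± 0.37 (SE), adjusted p = 0.246). Its transcript is 3325 bases long, against 1051 for Txn1 and 1298 for Txn2, and with length and GC trends removed its fold change was 0.50 (adjusted p = 0.481). Txnrd2, the mitochondrial reductase, was at 20.4, 18.0 and 21.0 CPM in WT saline and 16.7, 15.7 and 14.4 in WT ethanol, below without overlap but not nominal (−0.35 ± 0.38, adjusted p = 0.639). The glutathione synthetase gene Gss, at 18.6, 14.4 and 14.4 and 13.3, 11.4 and 6.5, likewise did not overlap and was not nominal (−0.60 ± 0.41, adjusted p = 0.435). Of the GST genes, which join glutathione to electrophiles, Gstm5 was nominally lower (log2 fold change −1.82 ± 0.77 (SE), adjusted p = 0.238). Gstm1 (0.36), Gsta4 (−0.90) and Gstp1 (−1.02) were not nominal.

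Both ferritin chains were lower in counts after ethanol in WT mice, with no overlap between groups. Ftl1 was at 3231, 1934 and 2784 CPM in WT saline and 626, 1507 and 683 in WT ethanol (log2 fold change −1.50 ± 0.64 (SE), adjusted p = 0.243), and Fth1 at 2996, 1624 and 1615 and 625, 1287 and 502 (−1.37 ± 0.72, adjusted p = 0.312). On the authors' quantile-normalized RPKM the direction flipped, to 0.02 for Ftl1 and 0.11 for Fth1. Sequence windows of 75 bases, the length of a read, were shared with other genes over 69.9% of Ftl1, 62.4% of Gpx4, 57.7% of Gstp1, 14.8% of Gstm1 and 12.2% of Sod1. The counts of these genes, and to a lesser degree those of Prdx1, Prdx2 and Fth1, are therefore uncertain. Among glutathione peroxidases, Gpx4 passed the 0.30 level (log2 fold change −1.36 ± 0.67 (SE), adjusted p = 0.293), while Gpx1, the main cytosolic form, and Gpx3, the secreted form, did not (−0.78 ± 0.50, adjusted p = 0.402 and 0.51 ± 0.62, adjusted p = 0.672).

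**Figure D3:**
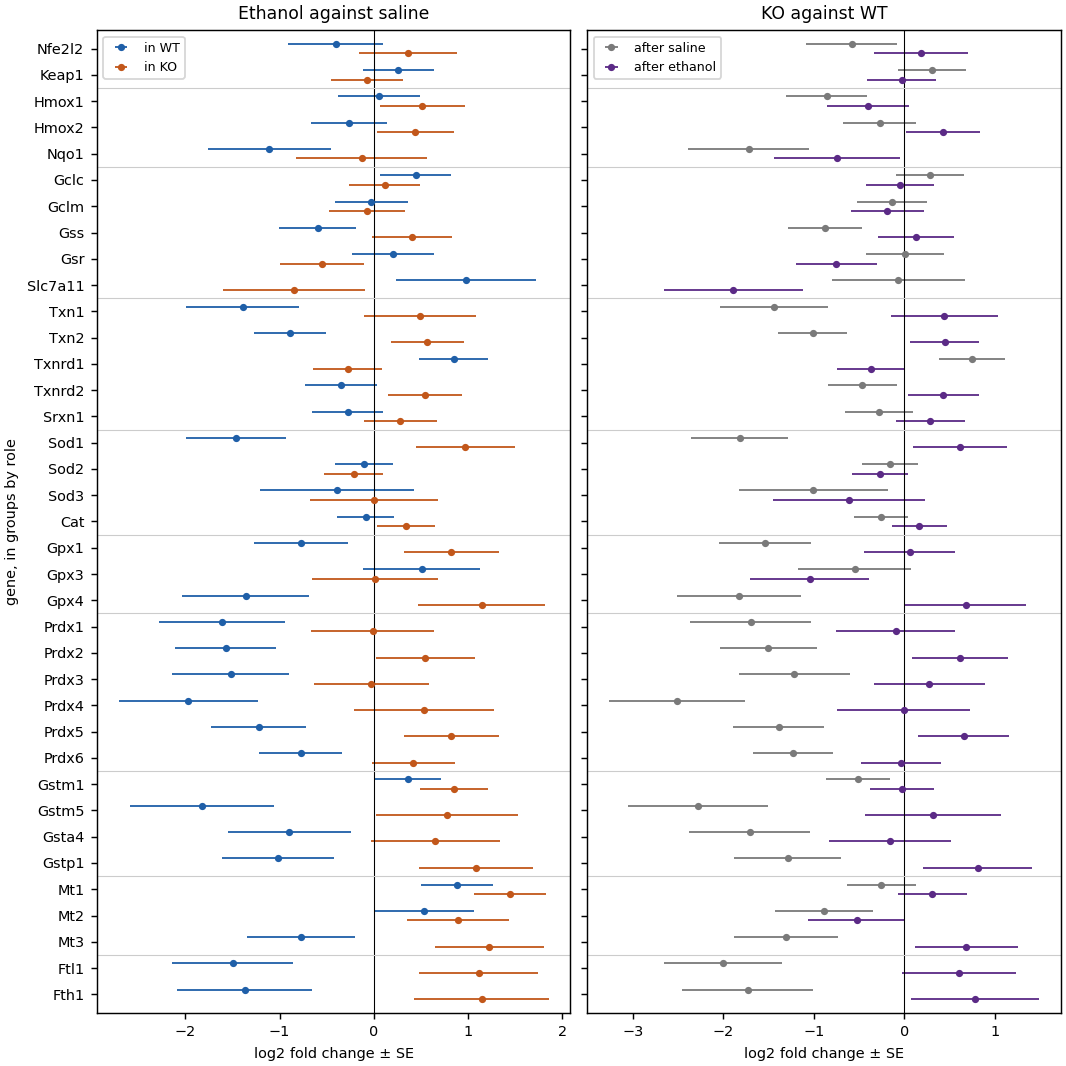
Points are log2 fold changes ± SE of the 37 genes, grouped by role, for ethanol against saline in WT and KO mice (left) and for KO against WT mice after saline and after ethanol (right), from 3 libraries per group. The 6 peroxiredoxins lie below 0 in WT mice (left, blue) and in KO saline against WT saline (right, gray), whereas Mt1 lies above 0 for ethanol in both genotypes (0.88 and 1.45).

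In KO mice, Mt1 and Gstm1 were the 2 members nominally higher after ethanol, against 1.15% of all genes tested, and no member was nominally lower, against 2.01%. No member approached an adjusted p of 0.30, and neither did any other gene, with the smallest at 0.999. The median log2 fold change was 0.49 over the members and 0.01 over all genes, and 28 of the 37 values were positive. Gstm1 was at 45.9, 37.1 and 36.8 CPM in KO saline and 61.4, 97.0 and 60.6 in KO ethanol, with no overlap (log2 fold change 0.85 ± 0.36 (SE), adjusted p = 0.999). In WT mice it was at 68.4, 55.5 and 46.7 and 97.7, 45.1 and 76.4 (0.36 ± 0.35, adjusted p = 0.588), and averaged over genotypes it was 0.61 ± 0.25, adjusted p = 0.692. Without KO ethanol 12 the KO value of Gstm1 was 0.61 (adjusted p = 0.999). That library also carried most of the positive median, which was 0.01 over the members without it. The ferritin chains, for example, were at 468, 3259.7 and 439 CPM for Fth1 in KO ethanol and 447, 629 and 804 in KO saline, so that KO ethanol 12 alone stood above the saline range. Sod1, Gsta4, Gstm1 and Mt1 lay higher in all ethanol than in all saline libraries of KO mice, and Sod2 lower, where 3.89% and 6.87% of all genes did so.

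Averaged over genotypes, 2 of the 37 genes, Mt1 and Gstm1, were nominally higher after ethanol, against 4.62% of all genes, and 0 were nominally lower, against 2.47%. The averaged Gstm1 effect stayed nominal in 17 of 24 alternative analyses, including 6 of the 12 with 1 library left out. The Gstm1 effect in KO mice did so in 16 of 25. The median was −0.09 over the members and 0.01 over all genes.

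KO saline libraries held lower levels of most of these genes than WT saline libraries. None of the 37 was nominally higher and 17 were nominally lower, against 9.14% and 10.5% of all genes tested (1 higher and 7 lower without TMM scaling), and 33 of the 37 fold changes were negative. The median was −1.01 over the members and 0.04 over all genes. At the 0.30 level, 21 members were called, 20 of them lower, with 25.8% of all genes called. This comparison uses the same 3 WT saline libraries as the ethanol comparison in WT mice. Without WT saline 1, the library with the most short-transcript counts, 4 members were nominally lower and none reached the 0.30 level. That library also had the highest summed levels of red blood cell (1319 CPM) and meninges and fibroblast markers (535 CPM), and their part in the result was not tested. Summed neuron markers were at 6289 to 7735 CPM in KO saline, below the 8390.2 to 9238 of WT saline, and their part was not tested either.

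By role, all 6 peroxiredoxins, both ferritin chains, 2 of 3 glutathione peroxidases and 3 of 4 GST genes passed the 0.30 level with lower values in KO mice. Sod1 was at 193, 184 and 159 CPM in KO saline, below all WT saline libraries (log2 fold change −1.82 ± 0.54 (SE), adjusted p = 0.176). Prdx4 was at 18.0, 35.0 and 34.0, overlapping WT saline 3 (log2 fold change −2.51 ± 0.75 (SE), adjusted p = 0.176). Ftl1 was at 607, 608 and 765 in KO saline, below all WT saline libraries (log2 fold change −2.01 ± 0.65 (SE), adjusted p = 0.176). Gpx1, which reduces hydrogen peroxide with glutathione, was at 55.0, 62.3 and 51.9 in KO saline and 254, 75.6 and 161 in WT saline (log2 fold change −1.54 ± 0.51 (SE), adjusted p = 0.177). Gstm5 was at 91.5, 163 and 115 and 1262, 146 and 382 (log2 fold change −2.28 ± 0.78 (SE), adjusted p = 0.177), and Prdx2 at 504, 624 and 443 CPM in KO saline (log2 fold change −1.50 ± 0.54 (SE), adjusted p = 0.183). Of these, Sod1, Ftl1, Gpx1 and Prdx2 did not overlap between the groups. Over all members, 14 lay lower in every KO saline than in every WT saline library and 1 higher, against 10% and 12.9% of all genes. Nqo1 was low in all libraries, at 2.21, 2.87 and 3.68 in KO saline and 18.0, 2.57 and 7.65 in WT saline (−1.72 ± 0.67, adjusted p = 0.2), and WT saline 3 lay within the KO range. The 1 member with a higher value at the 0.30 level was Txnrd1, at 48.8, 60.1 and 74.5 CPM in KO saline (log2 fold change 0.75 ± 0.37 (SE), adjusted p = 0.27). Mt1 did not differ nominally (−0.25 ± 0.38, adjusted p = 0.737). With length and GC trends removed its value turned to 0.78. Gss was at 10.1, 7.67 and 8.07 CPM in KO saline, below all WT saline libraries (−0.88 ± 0.41, adjusted p = 0.257). On log2(RPKM + 1) the values shrank to −0.38 for Sod1, −0.27 for Ftl1, −0.11 for Prdx2, −0.67 for Gpx1, −0.70 for Gstm5 and −1.32 for Prdx4. On that scale 0.02 for Fth1 and 0.10 for Txn1 were positive, where counts gave −1.73 and −1.44.

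After ethanol, 1 member differed nominally between the genotypes. None of the 37 was nominally higher in KO ethanol than in WT ethanol libraries, against 0.977% of all genes, and the 1 was nominally lower, against 2.26%. The median was 0.13 over the members and −0.03 over all genes, and no gene passed the 0.30 level, with the smallest adjusted p over members at 0.982. The nominal gene was Slc7a11, the cystine-glutamate exchanger that supplies cysteine for glutathione and is a known target repressed by p53. It was at 123, 31.7 and 23.9 CPM in WT ethanol and 20.1, 5.01 and 19.2 in KO ethanol, with no overlap (log2 fold change −1.89 ± 0.77 (SE), adjusted p = 0.982). The value of 5.01 in KO ethanol 12 came from 3 counts. WT ethanol 4 had the highest Slc7a11 level of the 12. It also had the highest choroid plexus (4992 CPM) and astrocyte (2765 CPM) marker sums and a meninges and fibroblast sum of 225 CPM. Without it the difference was −0.78 (adjusted p = 0.9999), and the part of those cell types in the value was not tested. After saline, Slc7a11 was at 65.6, 6.68 and 17.5 in WT and 18.7, 32.1 and 36.1 in KO mice (−0.06 ± 0.73, adjusted p = 0.973).

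The genotype by ethanol interaction asks whether the ethanol effect in KO mice differed from that in WT mice. It was nominally positive for 13 members and negative for 1, against 7.5% and 7.67% of all genes (6 positive and 2 negative without TMM scaling), with a median of 0.98 over the members and −0.11 over all genes. At the 0.30 level, 11 members were called, all positive, with 11.1% of all genes called and a smallest adjusted p of 0.250. A positive value means that the KO effect was above the WT effect. The largest evidence was for Sod1 (log2 fold change 2.44 ± 0.75 (SE), adjusted p = 0.25), followed by Ftl1 (2.61 ± 0.90, adjusted p = 0.252), Prdx5 (2.04 ± 0.71, adjusted p = 0.252) and Prdx2 (2.12 ± 0.75, adjusted p = 0.257). Txn2 (1.46 ± 0.54, adjusted p = 0.266) and Gpx4 (2.5 ± 0.95, adjusted p = 0.267) came next. In each of these the WT effect was negative and the KO effect positive, as for Sod1 with −1.46 and 0.97. Sod1 in KO ethanol was at 201, 654 and 204 CPM, so KO ethanol 12 lay within the WT saline range and the other 2 lay just above KO saline. Gpx4 was at 1699, 368 and 667 CPM in WT saline, 229, 558 and 279.6 in WT ethanol, 229.7, 275 and 267 in KO saline and 248, 1217 and 254 in KO ethanol, where KO ethanol 12 again stood above the other 2. In KO ethanol, Ftl1 was at 624, 3084 and 579 and Prdx2 at 482, 1366 and 454 CPM. Prdx5 was at 129, 116 and 109 CPM in KO saline and 122, 386 and 127 in KO ethanol. Txn2 was at 112, 101 and 81.1 in KO saline and 105, 231 and 107 in KO ethanol. KO ethanol 12 was the highest KO library for all 4 genes. The negative member was Txnrd1 (−1.12 ± 0.52, adjusted p = 0.322). Without WT saline 1 and KO ethanol 12, 1 member was nominally positive and 1 negative. On log2(RPKM + 1) the interaction shrank to 0.54 for Sod1, 0.18 for Ftl1, 0.40 for Prdx5, 0.36 for Prdx2, 0.49 for Txn2 and 0.44 for Gpx4. With trends removed and without the L libraries, that of Sod1 was 0.31. The interaction of Fth1, 2.51 in counts, changed sign on log2(RPKM + 1), to −0.09.

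Transcript length ran along these differences. The median length of the 37 genes was 1569 bases, against 2957 over the genes tested, and 24 of them (64.9%) were under 2000 bases, against 27.7% of all. Across genes, Spearman's rho between length and log2 fold change was 0.44 over the members and 0.48 over all genes for ethanol in WT mice, and −0.87 and −0.47 for ethanol in KO mice. It was 0.68 and 0.54 for KO saline against WT saline. These are descriptions over genes of the same libraries, which are not independent. Among genes under 2000 bases, 9 of the 24 members (37.5%) were nominally lower after ethanol in WT mice, against 22.6% of all genes of that class, and 15 (62.5%) were nominally lower in KO saline than in WT saline, against 29.3%. In the interaction, 13 of the 24 (54.2%) were nominally positive, against 23.5%. Lengths within this class were not matched. Over all genes, the median ethanol effect in WT mice ran from −1.34 near 609 bases to −0.33 near 1722 bases. The higher shares of members are therefore not read as particular to them. Among the 13 members assigned 2000 bases or more, 1 was nominally lower after ethanol in WT mice, Prdx1, assigned 2294 bases. That length is uncertain, since counts at equal RPKM scale with length within a library. In WT saline 3, Prdx1 had 445 counts at 141 RPKM and Gstm5, at 945 bases, 283 counts at 139 RPKM. Prdx1 may therefore belong with the shorter genes. In contrast, Mt1 and Mt2, at 549 and 511 bases, lay above the genes of their length in WT mice.

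With the length and GC trends of each library removed, rho over the members was between −0.12 and 0.11 in the 6 comparisons, and the nominal members fell to 4 in WT ethanol against saline (2 higher and 2 lower). The 2 higher were Mt1 and Mt2, and the 2 lower were Prdx1 (−1.33, adjusted p = 0.278) and Prdx2 (−1.28, adjusted p = 0.261). The Prdx1 value rests on the uncertain length of 2294 bases. Of all genes under 2000 bases, 6.16% were then nominally higher and 7.72% lower in that comparison. For all genes of 2000 bases or more these shares were 6.0% and 10.5%. In KO saline against WT saline 8 members were then nominal, 7 lower and 1 higher. None had been nominally higher before, and the lower ones of 2000 bases or more went from 2 to 3, so some calls were new. Of all genes under 2000 bases, 5.07% were then nominally higher and 7.33% lower. For all genes of 2000 bases or more these shares were 4.99% and 9.96%. The part of RNA quality or of the dissection method in the length trends was not tested. The methods describe laser dissection and hole punches, which could not be assigned to libraries.

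**Figure D4:**
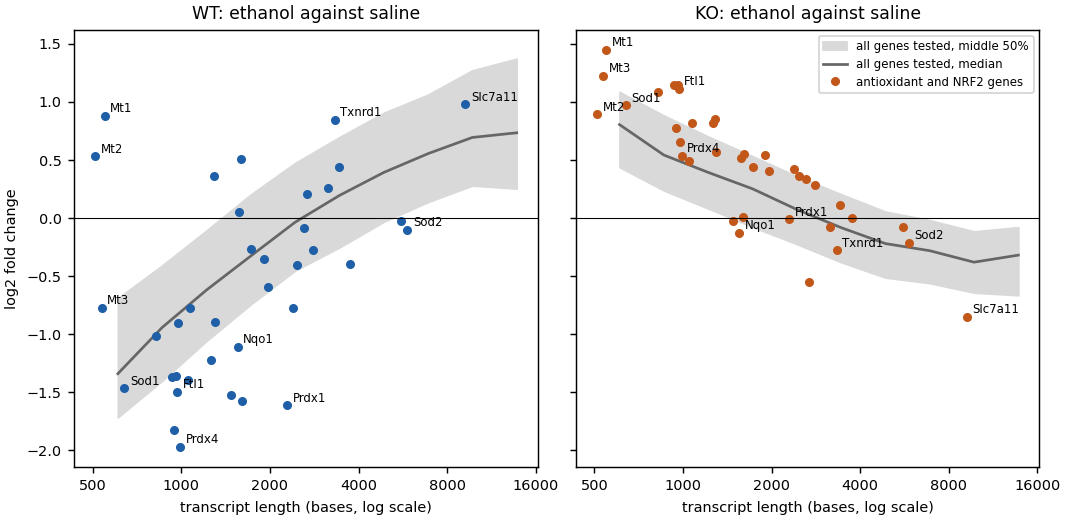
Log2 fold changes for ethanol against saline in WT (left) and KO mice (right) are plotted against transcript length in bases on a log scale, with the 37 genes as points and the median and middle 50% of all genes tested as a line and gray band. The median rises with length in WT mice and declines in KO mice (rho 0.48 and −0.47). Mt1 and Mt2 lie to the left of the start of the band and, in WT mice, above the level of its short end.

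**Figure D5:**
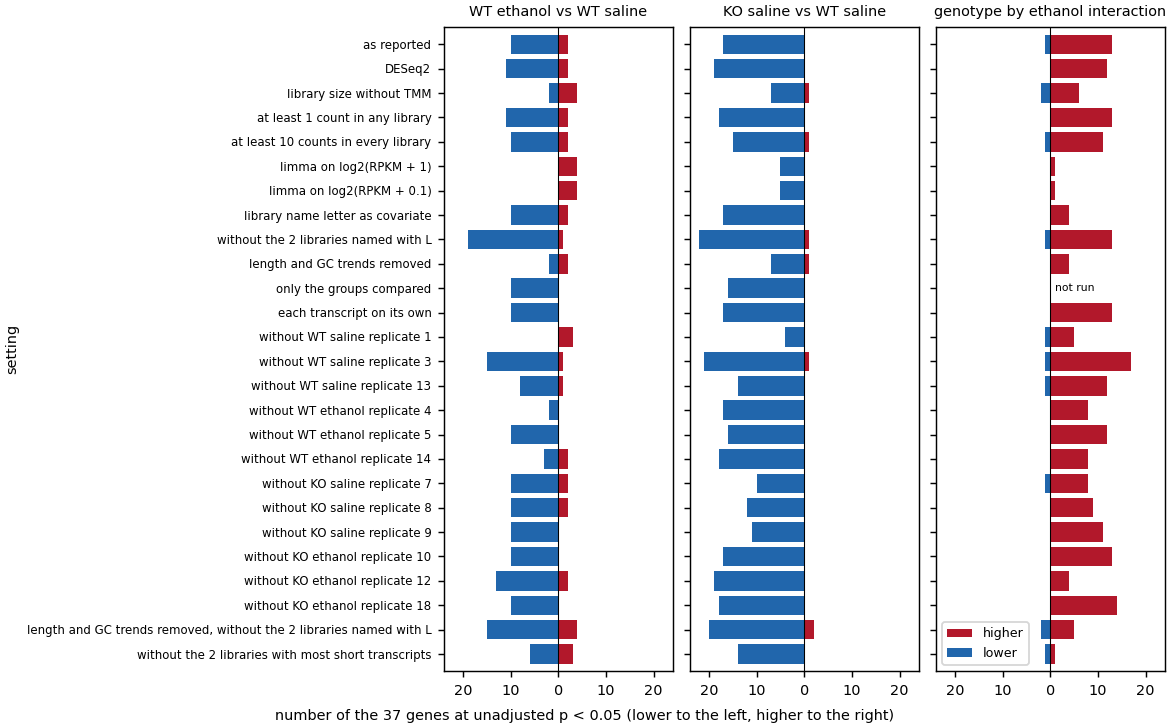
Bars give the number of the 37 genes with an unadjusted p under 0.05, lower to the left and higher to the right, for 3 comparisons under each analysis setting. Ethanol in WT mice ranges from 10 lower and 2 higher as reported to 0 lower and 3 higher without WT saline 1, and the interaction drops from 14 to 2 without the 2 libraries richest in short transcripts.

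Other genes of the pathway were taken from a hand-written list of 74 symbols in the files, of which 72 were tested. In WT mice 2 were nominally higher after ethanol and 20 lower, against 9.99% and 8.36% of all genes. In KO mice 3 were higher and 1 lower, against 1.15% and 2.01%. In KO saline against WT saline 3 were higher and 26 lower, against 9.14% and 10.5%. After ethanol 1 was higher and 2 lower in KO than in WT mice, against 0.977% and 2.26%. The interaction was nominally positive for 18 and negative for 3, against 7.5% and 7.67%. Averaged over genotypes, 1 was higher after ethanol and 4 lower, against 4.62% and 2.47%. With all 12 libraries, none passed an adjusted p of 0.05 in edgeR.

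The list held 23 tested genes of other glutathione and glutaredoxin proteins. After ethanol in WT mice 11 were nominally lower, against 8.36% of all genes and 22.6% of those under 2000 bases, not matched further for length. Among them were Gpx7, a peroxidase of the endoplasmic reticulum (−1.45 ± 0.38, adjusted p = 0.153), Chac1, which degrades glutathione and is a target of the integrated stress response (−1.58 ± 0.44, adjusted p = 0.171), Gsto1, an omega-class GST (−1.50 ± 0.46, adjusted p = 0.189), and Glrx3, an iron-sulfur glutaredoxin (−2.08 ± 0.64, adjusted p = 0.189). Chac1 was at 13.2, 13.9 and 10.2 CPM in WT saline, 4.47, 3.34 and 4.57 in WT ethanol, 13.0, 9.31 and 16.3 in KO saline and 12.9, 6.69 and 6.09 in KO ethanol. Its effect averaged over genotypes was −1.06 ± 0.31, adjusted p = 0.604, the smallest p of the list there, followed by the iron exporter Slc40a1 (−0.79 ± 0.26, adjusted p = 0.633), Gpx7 (−0.76 ± 0.27, adjusted p = 0.647) and the isocitrate dehydrogenase Idh1 (−1.02 ± 0.37, adjusted p = 0.647). In KO mice Ireb2, which encodes an iron regulatory protein, was nominally lower after ethanol (−1.27 ± 0.44, adjusted p = 0.999), and the carbonyl reductase Cbr1 (0.80 ± 0.33, adjusted p = 0.999), Glrx5 (1.01 ± 0.46, adjusted p = 0.999) and the biliverdin reductase Blvrb (1.43 ± 0.67, adjusted p = 0.999) were higher. In KO saline against WT saline the smallest p was for Gstm2 (−3.12 ± 0.76, adjusted p = 0.16), and Mafg, a small MAF partner of NRF2, was higher (1.79 ± 0.50, adjusted p = 0.176). Gpx7 (−1.47 ± 0.38, adjusted p = 0.16) and Gsto1 (−1.57 ± 0.46, adjusted p = 0.176) were lower there. After ethanol the zinc exporter Slc30a1, a known target of the metal-responsive factor that also drives metallothioneins, was lower in KO than in WT mice (−1.30 ± 0.48, adjusted p = 0.982), as was Ireb2 (−0.96 ± 0.44, adjusted p = 0.982), and Chac1 was higher (1.1 ± 0.44, adjusted p = 0.982). The interaction was positive for Gsto1 (2.21 ± 0.64, adjusted p = 0.25), Glrx5 (1.95 ± 0.64, adjusted p = 0.25), Blvrb (2.72 ± 0.92, adjusted p = 0.251) and the copper chaperone Ccs (1.59 ± 0.54, adjusted p = 0.251).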

How the data were processed

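The data were 12 stranded total RNA-Seq libraries of P7 somatosensory cortex, sequenced as single-end reads of 75 bases. Per the study's methods, low-quality reads were removed, Bowtie2 in TopHat placed the rest on mm10, and Partek Flow assigned them to RefSeq transcripts. The deposited estimated counts, with 1 value for each transcript and library, include fractions (51.0 to 52.7% of the nonzero counts). The deposited RPKM values, also by the authors, have sorted values that nearly coincide between libraries, as after a quantile normalization. Precision was set by totals of 719735 to 17066392 counts. Groups and replicate numbers were taken from the labels.

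Counts were summed per symbol and rounded. The edgeR version was 4.0.16, under R 4.3.3, with filterByExpr, TMM scaling and the quasi-likelihood test. A single fit gave each of the 4 groups its own mean. Tests were two-sided and adjusted by Benjamini-Hochberg over 14739 symbols. SE values came from the F statistic. The scripts were tested on simulated data. An adjusted p is from edgeR unless another tool is named.

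The members and the gene lists were chosen with earlier results of these data known. Members were described by role. Values per library were given for Nfe2l2, Keap1, up to 6 members with the smallest nominal p per comparison, and the 3 members with the highest mean RPKM. Up to 4 nominal pathway genes per comparison were named. Hmox1, Gclc, Gclm, Gss, Txnrd2, Mt2, Mt3, Txn1, Txn2, Txnrd1, Fth1, Nqo1 and Chac1 were shown in addition, chosen after their values were seen.

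The alternatives were DESeq2 1.42.0, library sizes without TMM, a minimum of 1 count in any library or of 10 in every library, limma 3.58.1 with pseudocounts of 1 and of 0.1 on the log2 RPKM scale, the opening letter of library names as covariate, the 2 libraries named with L left out, removal of length and GC trends (splines with 5 degrees of freedom), only the groups compared, single transcripts, and each library left out. Trend removal without the L libraries, and leaving out the 2 libraries richest in short transcripts, were added after seeing the data. Promoter windows matched 31 of the 37 members. Tables and plots were made in Python 3.11.15 (pandas 2.3.3, numpy 2.4.6, matplotlib 3.10.9, scipy 1.17.1). Experiments of the study other than these libraries were not analysed here.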

Additional observations from a re-analysis of the deposited data

Results flagged for a closer look

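The genotype by ethanol interaction was called at the adjusted level of 0.30 for 11 of the 37 genes, none under 0.05, against 11.1% of all genes tested. In log2 units (KO effect minus WT effect) it was 2.44 for Sod1, 2.61 for Ftl1, 2.04 for Prdx5, 2.12 for Prdx2, 1.46 for Txn2 and 2.5 for Gpx4. It was 2.51 for Fth1, 2.10 for Gstp1, 2.0 for Mt3, 2.60 for Gstm5 and 2.51 for Prdx4. WT saline 1 and KO ethanol 12, the libraries with the most counts in short transcripts (30.0% and 20.5%), were each among the 3 highest of the 12 for all 11 genes. Without both libraries, 1 of the 37 members, Sod1, had a nominal positive interaction. The part of transcript length in these values was not tested beyond the alternatives given for the processing.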

How the results depend on the processing

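Numbers here are members of the 37 with an unadjusted p under 0.05, in either direction. Shares of all genes are not given for each setting in this section, and they rose without the L libraries in the comparisons named in the Results. A rise or fall here is therefore not read as particular to the members. For ethanol in WT mice (12 as reported) they were 6 without TMM, 4 on log2(RPKM + 1), 4 on log2(RPKM + 0.1), 20 without the 2 libraries named with L, 4 with length and GC trends removed and 19 with both. For ethanol in KO mice (2) they were 4 in DESeq2, 1 without TMM and 1 with trends removed. For KO saline against WT saline (17) they were 8 without TMM, 5 on log2(RPKM + 1), 5 on log2(RPKM + 0.1) and 8 with trends removed. For KO ethanol against WT ethanol (1) they were 0 with at least 10 counts in every library, 0 on log2(RPKM + 0.1), 2 with the library letter as covariate, 4 without the L libraries, 0 with trends removed, 8 with both and 3 without the 2 libraries richest in short transcripts. For the effect averaged over genotypes (2) they were 17 without the L libraries, 17 with trends removed as well and 7 without the 2 libraries richest in short transcripts. For the interaction (14) they were 8 without TMM, 1 on log2(RPKM + 1), 1 on log2(RPKM + 0.1), 4 with the letter as covariate, 4 with trends removed, 7 with trends removed and without the L libraries, and 2 without the 2 libraries richest in short transcripts. With 1 library left out the ranges were 2 to 16, 1 to 9, 4 to 22, 0 to 2, 1 to 9 and 4 to 18 in this order of comparisons. The cause was not tested.

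Without WT saline 1, 3 members were nominal for ethanol in WT mice, 4 for KO saline against WT saline, and none at the 0.30 level in either. Ethanol in WT mice also gave 2 without WT ethanol 4 and 5 without WT ethanol 14. Ethanol in KO mice gave 9 without KO ethanol 10 and 8 without KO ethanol 18. Without KO ethanol 12 the interaction gave 4 and the averaged effect 9. Without KO saline 8 or KO saline 9 no member reached 0.30 in KO saline against WT saline. The genes with the smallest nominal p in each comparison (up to 6) kept their sign in every alternative run, whereas Ftl1, Fth1, Txn1 and Mt3 for ethanol in WT mice, Fth1 and Txn1 in KO saline against WT saline and Fth1 in the interaction turned on log2(RPKM + 1). Leaving out TMM moved the median of all genes from 0.06 to 0.49 for ethanol in WT mice, from 0.04 to 0.49 for KO saline against WT saline, from 0.01 to 0.24 for the averaged effect and from −0.11 to −0.52 for the interaction. No paired analysis was possible because the groups share no replicate number. The fit to only the groups compared was not run for the averaged effect and the interaction. The depth of the 2 L libraries limits the low genes, such as Sod3 and Nqo1.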

Other observations

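The antioxidant response element core TGACNNNGC was in the promoter windows of 8 members (Gclm, Gstm5, Mt2, Nfe2l2, Prdx1, Sod1, Srxn1 and Txnrd1), that is in 20% of the 40 windows of members and 12.4% of all 32851 windows. Other members may hold the core outside their windows, where it was not searched. Gclm and Srxn1, which hold the core in their windows, were not nominal in any comparison. Txnrd1 was nominally higher after ethanol in WT mice while Prdx1 was nominally lower. Chac1 was higher in all 3 WT saline than in all 3 WT ethanol libraries (13.2, 13.9 and 10.2 against 4.47, 3.34 and 4.57 CPM), and in KO mice it was at 13.0, 9.31 and 16.3 after saline and 12.9, 6.69 and 6.09 after ethanol.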
